A study of Mus musculus with 2 samples.

Results

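The 10 genes described here belong to the interleukin-1 (IL-1) system of the mouse. They are the ligands Il1a and Il1b, the receptor antagonist Il1rn, the receptor chains Il1r1, Il1r2, Il1rap and Il1rl1, the IL-18 binding protein Il18bp, and the inflammasome genes Nlrp3 and Casp1. They were chosen by name, and all 10 were found among the 27998 genes of the count tables. Levels were followed across neutrophils, monocytes, macrophages, dendritic cells and T cells, each gated on raw counts of marker genes, in wild-type (WT) and CD94-KO mice. Both groups were C57BL/6J mice of 6 to 8 weeks that carried subcutaneous tumours, and the CD94-KO group lacked CD94, a receptor chain of natural killer (NK) and some T cells encoded by Klrd1. Live CD45+ cells (7AAD stain, flow sorting) gave 1 droplet-based 3′ single-cell RNA library per genotype, and each data set was stated to come from 5 tumour-bearing mice. The tumour line, the design of the deleted allele and any treatment are not given in the sources used here.

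IL-1 alpha and IL-1 beta signal through IL1R1, which needs IL1RAP as its second chain. IL1RN occupies IL1R1 without signalling, and IL1R2 binds IL-1 as a decoy. IL-1 beta is made as an inactive precursor that caspase-1 cleaves within inflammasomes such as that of NLRP3, while IL-1 alpha is active before cleavage. IL1RL1 pairs with the same IL1RAP chain to sense IL-33, and IL18BP neutralises IL-18, another product of caspase-1. Myeloid cells are a familiar source of IL-1 beta in tumours.

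The files held 5358 WT and 5175 CD94-KO barcodes, of which 4571 and 4765 passed the filters, with medians of 4845 and 7953 unique molecules (UMIs) per cell. Gates placed 16 WT and 63 CD94-KO cells as neutrophils, 349 and 686 as monocytes, 352 and 651 as macrophages, 266 and 360 as dendritic cells, and 370 and 310 as T cells. Class names below are short for barcodes that met that gate and no other. No gate was met by 52.2% of WT and 36.0% of CD94-KO cells, whose medians were 882 and 3579 UMIs, and more than 1 gate by 7.46% and 7.35%. Of the 8 neutrophil markers kept apart from gating, 7 were highest in the neutrophil class in each library, as were 5 and 7 of 8 for macrophages, 8 and 7 of 9 for T cells, 7 and 7 of 7 for mregDC and 6 and 6 of 6 for pDC. The count was lower for cDC1 (3 and 3 of 5), cDC2 (2 and 3 of 6) and monocytes (1 and 2 of 6). Macrophages kept monocyte gating markers at 2826 and 4201 UMIs per 1e6 UMIs, against 6673 and 7606 in monocytes, so the border between both classes is a range. Klrd1 stood at 627 on the same scale in the NK class of the WT library and at 289 in that of the CD94-KO library. It was 467 and 258 in pDC, but differed less in CD8 T cells (406 and 366) and cDC2 (300 and 250). It was therefore lower but not at 0, and a 3′ tag outside a deleted part would not show the deletion.

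A level is the number of UMIs of a gene per 1e6 UMIs of its class and library (CPM). Counts of 3′ tags are not scaled by transcript length, so levels are compared within a gene and only as tag counts between genes. Intervals are 95% and exact (Poisson for CPM, Clopper-Pearson for shares of cells, conditional binomial for ratios) and cover counting error only. Ratios are CD94-KO over WT. With 1 library per genotype there is no replicate spread and no test, so a ratio describes these libraries, and any effect of genotype, mice, tumours or library cannot be told apart. In summed counts, fewer expressing cells and less RNA per cell cannot be told apart either.

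Il1b was by tag count the most abundant member in the myeloid classes, and it was highest in neutrophils in both libraries. Its level there was 9380 CPM (8732 to 10063) in WT and 13121 CPM (12625 to 13631) in CD94-KO cells, and each neutrophil-gated cell had at least 1 Il1b UMI. Monocytes came next among the 5 classes with 6261 and 5118 CPM, followed by macrophages with 5417 and 4538 CPM. Intervals of these 3 classes did not overlap within either library. Among dendritic cells Il1b was high in the cross-presenting cDC1 (3187 and 4379 CPM) and in cDC2 (4220 and 3170 CPM), lower in mature Ccr7+ mregDC (2557 and 1661 CPM) and lowest in plasmacytoid pDC (236 and 261 CPM). The CD94-KO intervals of macrophages and cDC1 overlapped, whereas the other neighbours among these myeloid classes were apart.

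Within a class Il1b varied widely from cell to cell. Monocytes had a median of 35 UMIs per cell in WT (quartiles 9 and 92) and 29 in CD94-KO (7 and 75), and macrophages 38.5 and 32. The middle of the cDC2 distribution differed most among the named dendritic subclasses, with a median of 43 UMIs per WT cell and 19 per CD94-KO cell. These cDC2 had similar medians of depth, 11931 and 11391 UMIs. In ratio terms Il1b was 0.818 (0.804 to 0.831) in monocytes, 0.838 (0.824 to 0.852) in macrophages, 0.751 (0.725 to 0.779) in cDC2 and 0.649 (0.611 to 0.690) in mregDC. It was 1.40 (1.29 to 1.52) in neutrophils and 1.37 (1.28 to 1.47) in cDC1, so the direction was not shared by the myeloid classes. Barcodes that met no gate were also higher in CD94-KO, with 4637 and 5086 CPM of Il1b. Over all kept cells Il1b was 3122 and 3562 CPM (ratio 1.14, 1.13 to 1.15), a mean over classes whose shares differ. In cDC1 the summed monocyte gating markers were also higher in CD94-KO (789 and 2518 CPM). The mregDC ratio was 0.749 when each cell had the same weight, and the 10 highest cells held 58.2% of WT and 47.5% of CD94-KO Il1b UMIs in that class. Macrophage gating markers (212 and 102 CPM) and Lyz2 (486 and 213 CPM) were lower there as well, and their part in the Il1b value was not tested.

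T cells yielded 987 and 1150 CPM of Il1b, but with a median of 1 UMI per cell, and the 10 highest cells held 46.6% and 63.4% of the UMIs. At least 1 UMI was detected in 76.2% of WT and 71.6% of CD94-KO T cells (median depth 6631 and 5833.5 UMIs). Collagen-expressing non-immune cells, which should lack Il1b, had one in 74.5% and 84.3% of cells, at a depth of 51154 and 42665. After thinning of all cells to 1000 UMIs these shares became 25.3% and 23.5% in T cells and 4.72% and 1.96% in non-immune cells. Monocytes had 84.5% and 79.9%. Among lymphocytes nearer to T cells in depth, NK cells had 20% and 21.6% (median depth 7336 and 6321 UMIs). B cells had 27.3% and 25%, from 11 and 24 cells. The thinned T cell shares were thus close to those of other lymphocytes, with overlapping intervals, and the part of background RNA in them was not tested. T cells with under 5 UMIs of Lyz2, a lysozyme gene of myeloid cells, held 201 and 251 CPM of Il1b (299 and 275 cells). Lyz2 and Il1b thus moved together in the T cell gate, and the part of myeloid RNA in the T cell values was not tested.

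Il1a, the ligand stored in cells and released on damage, was likewise highest in neutrophils, then monocytes and macrophages, at far lower tag counts. T cells (17.1 and 23.6 CPM) and dendritic cells (9.10 and 7.21 CPM) were lowest, in the opposite order to Il1b. That order did not hold for T cells with under 5 Lyz2 UMIs. They held 5.06 and 3.88 CPM of Il1a (11 and 7 UMIs), below dendritic cells with overlapping intervals. In the whole T cell class, 22 of the 54 CD94-KO UMIs came from 1 cell. Neutrophils had 277 CPM (176 to 416) in WT and 725 CPM (612 to 853) in CD94-KO, monocytes 103 and 63.3 CPM, and macrophages 78.0 and 53.2 CPM, where the intervals of the latter pair overlapped in CD94-KO. A UMI was found in 24.1% of WT and 19.4% of CD94-KO monocytes, in 26.7% and 21.2% of macrophages, and in 6.60% and 5.88% of the deeper non-immune cells. The 10 highest monocytes held 50.8% and 36.4% of the Il1a UMIs, so a small number of cells carried much of the level. Per 100 Il1b UMIs there were 1.65 and 1.24 of Il1a in monocytes, 2.96 and 5.53 in neutrophils, and 0.295 and 0.271 in dendritic cells. Relative to Il1b, Il1a was therefore least abundant in dendritic cells in both libraries. The ratio was 0.614 (0.532 to 0.707) in monocytes and 0.681 (0.589 to 0.789) in macrophages, and with the marker minimum of each gate doubled the monocyte value was 0.800. Barcodes that met no gate went the other way, with 77.2 and 111 CPM of Il1a. Over all kept cells Il1a was 48.7 and 54.5 CPM (ratio 1.12, 1.05 to 1.19).

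The 2 ligand genes lie side by side on chromosome 2, Il1a at chr2:129299610-129309972 and Il1b at chr2:129364570-129371139 (GRCm38, minus strand). The bases upstream of their RefSeq start sites are shown because the neighbours differ so much in tag count. Capitals mark matches, on either strand, to AP-1 (TGANTCA) or PU.1 (GAGGAAG), both known as regulators in myeloid cells.
Il1a: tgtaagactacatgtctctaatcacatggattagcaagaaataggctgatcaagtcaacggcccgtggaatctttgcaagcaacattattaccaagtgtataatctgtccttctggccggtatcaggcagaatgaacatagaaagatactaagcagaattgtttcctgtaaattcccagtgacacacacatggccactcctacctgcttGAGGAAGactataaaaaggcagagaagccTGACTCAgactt
Il1b: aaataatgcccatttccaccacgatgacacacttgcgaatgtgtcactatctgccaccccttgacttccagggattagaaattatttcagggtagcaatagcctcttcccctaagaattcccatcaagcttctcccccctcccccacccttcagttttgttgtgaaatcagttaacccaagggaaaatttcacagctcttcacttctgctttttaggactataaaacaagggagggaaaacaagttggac
The windows are chr2:129309973-129310222 and chr2:129371140-129371389 (RefSeq, GRCm38.p6, minus strand), each 250 bases long and printed 5′ to 3′ up to the base before the start. In the Il1a window AP-1 matched from -12 to -6 and PU.1 from -41 to -35, counted from the start. The Il1b window, searched with 50 further bases, held neither of these motifs and none of NF-kB, C/EBP (TTGCNNAA) or the GATA motif AGATAA, which says only that these letters are not there. Among 32851 RefSeq promoters, AP-1 was found in 7.81%, PU.1 in 13.6%, NF-kB in 8.46%, C/EBP in 10.8% and GATA in 11.2%.

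**Figure D1:**
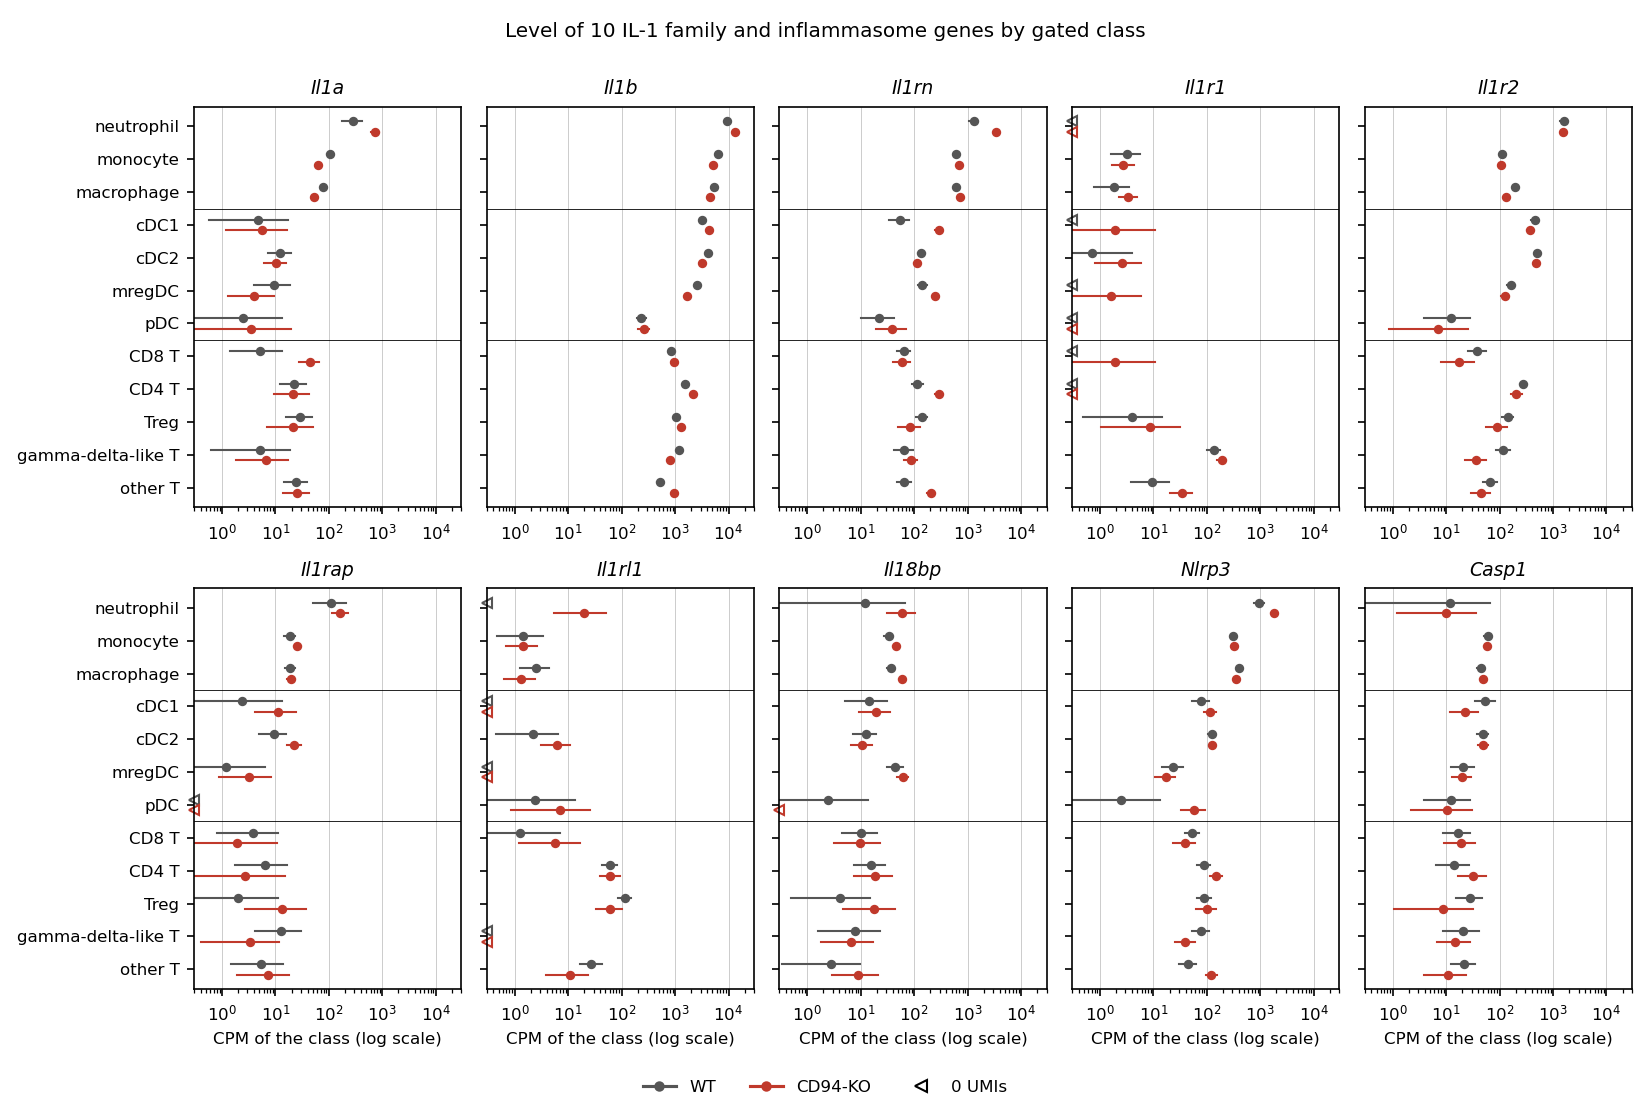
Level of each member as CPM of the class (horizontal log axis) in 12 gated classes of the WT and CD94-KO libraries, with points for the summed level, lines for the exact 95% interval and open triangles for 0 UMIs. Il1b, Il1rn and Nlrp3 are highest in neutrophils, Il1r1 in gamma-delta-like T cells (136 and 189 CPM), and Il1rl1 in regulatory and CD4 T cells among the classes drawn.

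Il1rn encodes the antagonist that competes with both ligands for IL1R1. It was highest in neutrophils, at 1302 CPM (1068 to 1572) in WT and 3352 CPM (3104 to 3615) in CD94-KO, with medians of 5.5 and 9 UMIs per cell. Monocytes held 599 and 700 CPM and macrophages 607 and 728 CPM, levels whose intervals overlapped between both classes in each library. A UMI was present in 78.8% and 82.1% of monocytes, 82.1% and 84.2% of macrophages, and 23.6% and 33.3% of the deeper non-immune cells. Ratios were 1.17 (1.11 to 1.23) in monocytes, 1.2 (1.14 to 1.26) in macrophages and 2.57 (2.10 to 3.18) in neutrophils. With each cell given the same weight, the neutrophil ratio was 1.52.

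Dendritic subclasses were uneven in Il1rn. In mregDC the level was 143 CPM in WT and 249 in CD94-KO (ratio 1.75, 1.41 to 2.17), with a UMI in 43.3% and 57.8% of cells. In cDC1 it was 53.9 and 288 CPM (ratio 5.35, 3.43 to 8.69), but a UMI was seen in 32.0% and 37.8% of cells, and 10 of the 37 CD94-KO cells held 96.1% of the UMIs. Monocyte gating markers in cDC1 were 789 and 2518 CPM, macrophage gating markers 60.9 and 332 CPM and Lyz2 881 and 1503 CPM, and their part in the Il1rn and Il1b values of cDC1 was not tested. In cDC2 the values were 135 and 115 CPM, and the ratio of 0.847 lay on the other side of 1. The dendritic class as a whole had 111 and 173 CPM (ratio 1.57, 1.37 to 1.79), which was 1.46 with each cell given the same weight and 1.32 with the marker minimum of each gate doubled.

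Relative to Il1b, Il1rn was more abundant in the CD94-KO library in each of the 5 classes. Per 100 Il1b UMIs there were 9.57 (9.14 to 10.0) Il1rn UMIs in WT and 13.7 (13.3 to 14.1) in CD94-KO monocytes. Macrophages gave 11.2 (10.8 to 11.7) and 16 (15.6 to 16.5), and neutrophils 13.9 (11.2 to 17.0) and 25.5 (23.4 to 27.8). The pair came to 3.6 and 6.52 in dendritic cells and to 8.85 and 12.4 in T cells. Barcodes that met no gate gave 9.53 and 12.3, and those that met several gave 12.1 and 15.0. The direction was not shared by NK cells (16.7 and 16.3), CD8 T cells (7.50 and 6.29) or regulatory T cells (13.2 and 6.25). Since this pair is read within a class, scaling of the libraries does not enter it. In cDC2 the values were 3.20 and 3.61, with overlapping intervals.

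**Figure D2:**
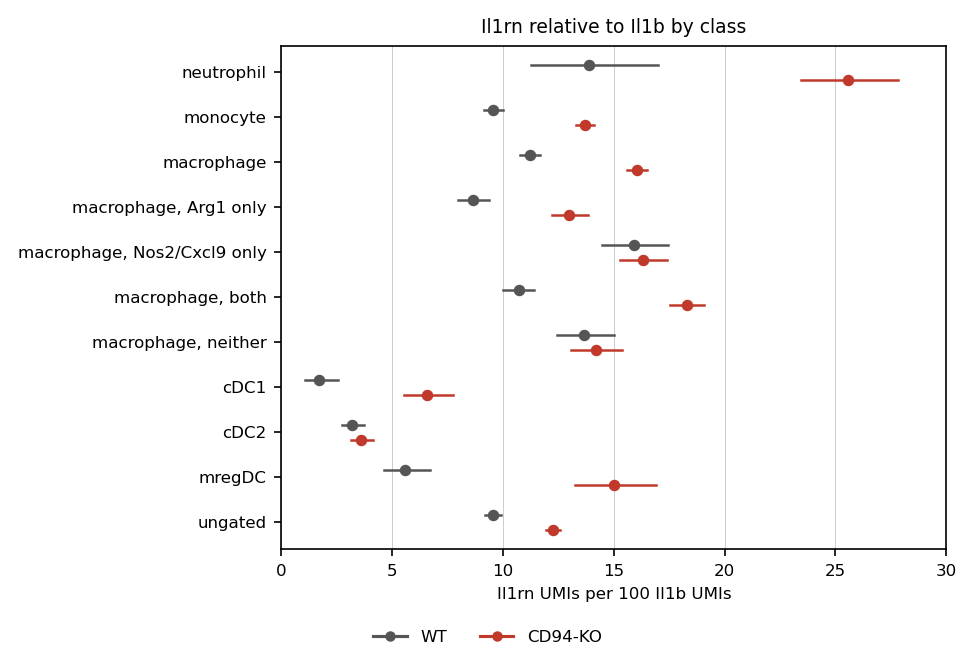
Il1rn UMIs per 100 Il1b UMIs (horizontal axis) by class in the WT and CD94-KO libraries, with lines for the exact 95% interval. CD94-KO lies to the right in monocytes (9.57 and 13.7), macrophages (11.2 and 16) and mregDC (5.58 and 15.0), and the intervals overlap in cDC2 and in macrophages with Nos2 or Cxcl9 only or with neither signature.

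Macrophages were further split by Arg1, a gene of the arginine-consuming state, and by Nos2 and Cxcl9, genes induced by interferon gamma, each at 3 UMIs or more. Arg1 alone marked 102 WT and 197 CD94-KO cells, Nos2 or Cxcl9 alone 53 and 108, both 94 and 175, and neither 103 and 171. Since raw UMIs were used, the states also differed in depth. Their medians were 13335.5 and 10439 UMIs with Arg1 alone, 10921 and 11002 with Nos2 or Cxcl9 alone, 14054 and 12990 with both, and 6019 and 8030 with neither. The part of depth in the contrasts between states was not tested. Il1b in CD94-KO cells was lower in the state with Arg1 alone (5131 and 3684 CPM) and with neither (4587 and 3388 CPM) than in WT, and closer where Nos2 or Cxcl9 was present (5673 and 5144 CPM alone, 6001 and 5641 CPM with Arg1). Il1rn was 642 and 1032 CPM in cells with both signatures (ratio 1.61, 1.49 to 1.73), 443 and 479 with Arg1 alone, 903 and 840 with Nos2 or Cxcl9 alone, and 627 and 481 with neither. The higher macrophage Il1rn of the CD94-KO library was thus found in cells with both signatures, while the ratio was 0.767 (0.682 to 0.862) in cells with neither. Il1rn was higher beside Nos2 or Cxcl9 alone than beside Arg1 alone within each library, with intervals apart.

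The receptor genes differed from each other in the classes that held them. Il1r1, the signalling chain, was concentrated in gamma-delta-like T cells, which were gated on Cd163l1, Il17a and Il23r among Cd3-positive barcodes. Its level there was 136 CPM (102 to 178) in WT and 189 CPM (156 to 227) in CD94-KO, with a UMI in 44.1% (31.2 to 57.6) and 57.7% (47.6 to 67.3) of cells. The ratio was 1.39 with an interval from 0.995 to 1.96, and with under 5 Lyz2 UMIs per cell it was 1.05 (0.747 to 1.5) from 185 and 194 CPM. No Il1r1 UMI was found in CD4 T cells of either library (71 and 50 cells, upper limits of 5.81 and 9.88 CPM) or in neutrophils (upper limits of 44.5 and 18.3 CPM), and CD8 T cells held 0 and 1 UMI. Monocytes and macrophages were near the bottom, at 3.17 and 2.73 CPM and at 1.80 and 3.41 CPM. The gamma-delta-like gate used no T cell receptor gene and did not leave out Cd4-positive barcodes. In turn, the CD4 and CD8 T gates left out barcodes with 2 or more UMIs of Cd163l1, Il17a and Il23r. Their Il1r1 counts are therefore of barcodes without that signature, in part by the gates.

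Over all T cells, Il1r1 was 20.4 CPM in WT and 59.8 CPM in CD94-KO, a ratio of 2.93 (2.15 to 4.02). Gamma-delta-like cells made up 59 of 370 WT and 104 of 310 CD94-KO T cells, so their share moved with the T cell level, and its part in that ratio was not tested. In T cells left outside the 4 named subclasses, Il1r1 was 9.55 and 33.9 CPM from 7 and 19 UMIs. Of all Il1r1 UMIs in the WT library, 27.7% lay in gamma-delta-like T cells and 33.5% in non-immune cells. For the CD94-KO library these shares were 39.9% and 11.8%.

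Il1rap, the shared second chain, was sparse. Neutrophils had 109 and 164 CPM from 9 and 33 UMIs, monocytes 18.4 and 25.5 CPM, and macrophages 18.7 and 19.8 CPM. In cDC2 the level was 9.40 and 22.3 CPM from 13 and 44 UMIs, a ratio of 2.37 (1.26 to 4.80), and over all dendritic cells 4.87 and 13.4 CPM (2.75, 1.53 to 5.25). A UMI was seen in 9.73% of WT and 19.8% of CD94-KO cDC2, against 3.24% and 4.91% of NK cells (median depth 7336 and 6321 UMIs). T cells held 5.60 and 4.80 CPM, so the chain that IL1R1 needs was near the detection limit in the class where Il1r1 was found: gamma-delta-like T cells gave 5 and 2 UMIs.

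Il1r2, the decoy receptor, was highest in neutrophils and in conventional dendritic cells. Neutrophils had 1628 CPM (1365 to 1926) in WT and 1554 CPM (1387 to 1737) in CD94-KO, levels with overlapping intervals. Next came cDC2 with 506 and 488 CPM and cDC1 with 452 and 377 CPM, whose intervals overlapped in WT and were apart in CD94-KO. In cDC2 a UMI was present in 80.5% and 71.0% of cells, against 6.60% and 7.84% of non-immune cells at their greater depth. The ratio was 0.964 in cDC2 and 0.966 in monocytes (112 and 108 CPM), but 0.657 (0.599 to 0.721) in macrophages, which had 198 and 130 CPM. That macrophage value was close to the 1.5-fold limit and was 0.669 under relative log expression scaling. By state, it was 0.544 (0.464 to 0.639) in cells with both signatures and 0.418 (0.342 to 0.512) with neither, and 1.05 (0.840 to 1.32) with Nos2 or Cxcl9 alone.

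Il1r2 was also found in CD4 T cells, at 279 CPM in WT and 206 CPM in CD94-KO. The level held among CD4 T cells with under 5 Lyz2 UMIs, at 290 and 250 CPM, where Il1b was 232 and 250 CPM. In regulatory T cells (Foxp3+) Il1r2 was 144 and 90.9 CPM, and 100 and 112 CPM with few Lyz2. Gamma-delta-like T cells had 116 and 36.2 CPM, which came to 1 and 7 UMIs with few Lyz2. Taking all T cells, the values were 123 and 67.2 CPM (ratio 0.548, 0.451 to 0.663) and 97.6 and 50.4 CPM with few Lyz2 (0.517, 0.400 to 0.664). T cells outside the 4 named subclasses had 74.5 and 9.35 CPM with few Lyz2, from 45 and 4 UMIs. Of 370 WT and 310 CD94-KO T cells, 71 and 50 were CD4, 59 and 29 regulatory and 59 and 104 gamma-delta-like. The part of these shares in the Il1r2 ratio of all T cells was not tested.

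**Figure D3:**
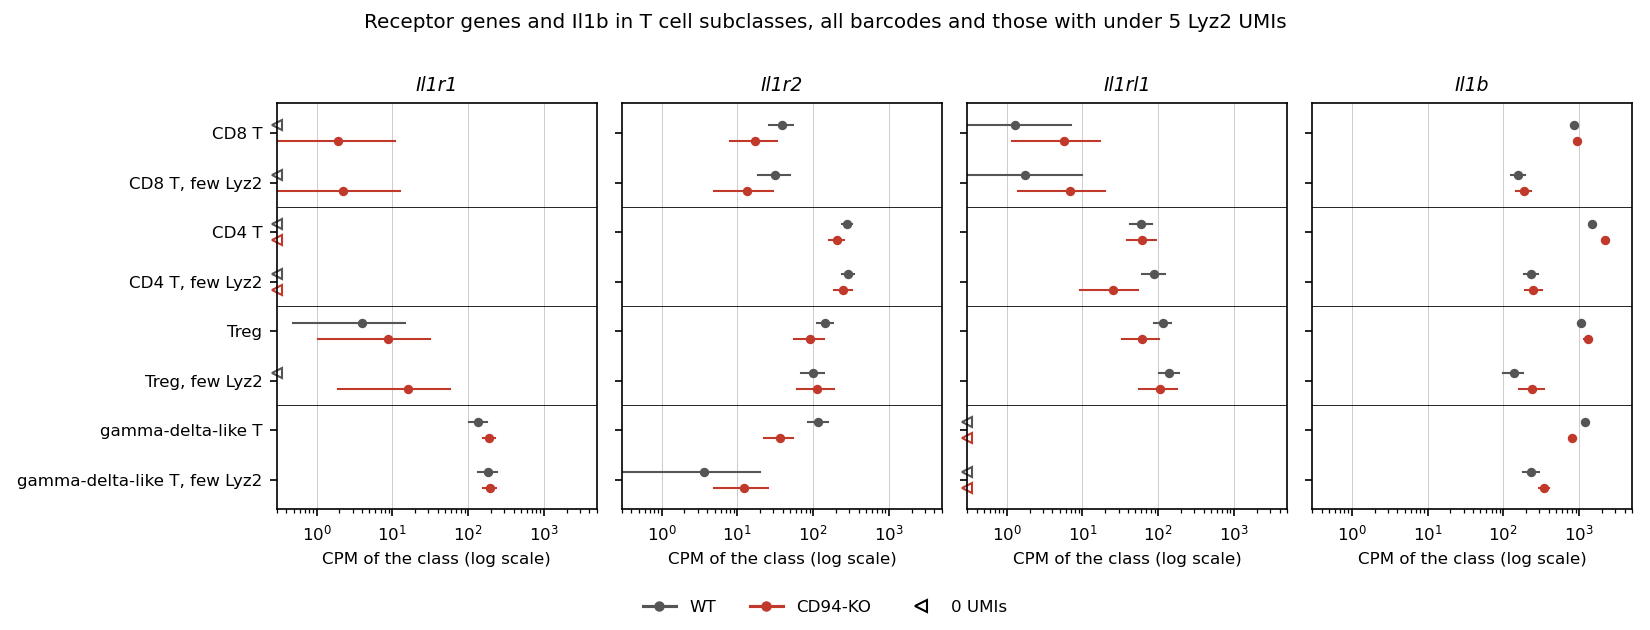
Il1r1, Il1r2, Il1rl1 and Il1b as CPM (horizontal log axis) in 4 T cell subclasses of the WT and CD94-KO libraries, for all barcodes and for those with under 5 Lyz2 UMIs, with lines for exact 95% intervals and open triangles for 0 UMIs. Il1r1 is highest in gamma-delta-like T cells, where Il1rl1 is at 0 in both libraries, and the Il1b level of each subclass is lower among barcodes with few Lyz2.

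Il1rl1, the IL-33 receptor of regulatory T cells, type 2 lymphocytes and mast cells, had its highest levels outside the myeloid classes. Regulatory T cells held 115 CPM (87.3 to 149) in WT and 60.6 CPM (33.1 to 102) in CD94-KO from 57 and 14 UMIs, a ratio of 0.526 (0.271 to 0.956). A UMI was seen in 25.4% and 17.2% of them. Among regulatory T cells with few Lyz2 the ratio was 0.740 (0.366 to 1.40), an interval that includes 1. CD4 T cells had 59.9 and 61.6 CPM, and 87.4 and 25 CPM from 35 and 6 UMIs with few Lyz2. In the WT CD4 T cells 23 of the 38 UMIs came from 1 cell. No UMI was found in gamma-delta-like T cells (upper limits of 9.49 and 6.08 CPM), mregDC (4.31 and 2.97 CPM) or cDC1 (8.64 and 6.99 CPM) of either library.

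Over all T cells Il1rl1 was 38.2 and 20.1 CPM (ratio 0.525, 0.365 to 0.745). Regulatory T cells were 59 of 370 WT and 29 of 310 CD94-KO T cells, and the part of that share in the T cell ratio was not tested. Mast or basophil cells, gated on Cpa3, Mcpt8 and related genes, had 252 and 193 CPM from 3 and 24 cells. Non-immune cells had 55.2 and 56.0 CPM and held 45.6% of all Il1rl1 UMIs in the WT and 28.4% in the CD94-KO library, so a mean over all cells would mix these sources. In macrophages the gene was at 2.48 and 1.31 CPM, and 6 of the 11 WT UMIs there came from 1 cell.

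Il1rl1 lies at chr1:40429570-40465415 on the plus strand (GRCm38) and is known to be transcribed from a distal start in blood-derived cells and from a proximal start in fibroblasts. The windows upstream of both RefSeq starts are shown because T cells and collagen-expressing cells both held the gene. Capitals mark C/EBP (TTGCNNAA) and the GATA motif AGATAA, on either strand.
Il1rl1 start 1: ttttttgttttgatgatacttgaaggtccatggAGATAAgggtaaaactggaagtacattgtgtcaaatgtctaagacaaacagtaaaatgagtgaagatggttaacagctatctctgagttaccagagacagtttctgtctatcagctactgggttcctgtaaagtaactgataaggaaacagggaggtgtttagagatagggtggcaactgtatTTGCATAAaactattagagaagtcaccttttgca
Il1rl1 start 2: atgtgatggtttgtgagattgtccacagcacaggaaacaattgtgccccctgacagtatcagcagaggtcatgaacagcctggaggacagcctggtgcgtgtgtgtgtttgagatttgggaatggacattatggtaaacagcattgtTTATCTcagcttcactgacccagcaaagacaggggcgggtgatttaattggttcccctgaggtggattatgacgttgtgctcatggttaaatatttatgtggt
The windows are chr1:40429320-40429569 and chr1:40439379-40439628 (RefSeq, GRCm38.p6, plus strand). GATA matched from -217 to -212 before the first start and from -103 to -98 before the other, and C/EBP from -34 to -27 before the first. A 3′ tag does not tell which start was used, nor the soluble from the membrane form, nor the isoforms of Il1rn.

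Il18bp encodes the secreted trap of IL-18. It was highest in mregDC (44.4 and 60.5 CPM), macrophages (36.1 and 58.0 CPM) and monocytes (33.4 and 44.9 CPM), whose intervals overlapped in WT, while in CD94-KO macrophages lay above monocytes with intervals apart. Neutrophils had 1 and 12 UMIs, too few to place. Ratios were 1.36 in mregDC, 1.61 (1.34 to 1.94) in macrophages and 1.34 (1.08 to 1.68) in monocytes, and the macrophage ratio was 1.47 with each cell given the same weight. A UMI was present in 28.1% of WT and 35.2% of CD94-KO macrophages, against 13.2% and 11.8% of non-immune cells and 2.97% and 3.21% of NK cells. By state, Il18bp was 44.8 and 79.6 CPM with both signatures (1.78, 1.35 to 2.36) and 58.2 and 88.9 CPM with Nos2 or Cxcl9 alone, but 15.5 and 20.6 CPM with Arg1 alone. In each library it was therefore lower beside Arg1 alone than beside Nos2 or Cxcl9 alone, with intervals apart. Its ligand Il18 was 37.5 and 46.3 CPM in monocytes and 20.5 and 25.2 CPM in macrophages.

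**Figure D4:**
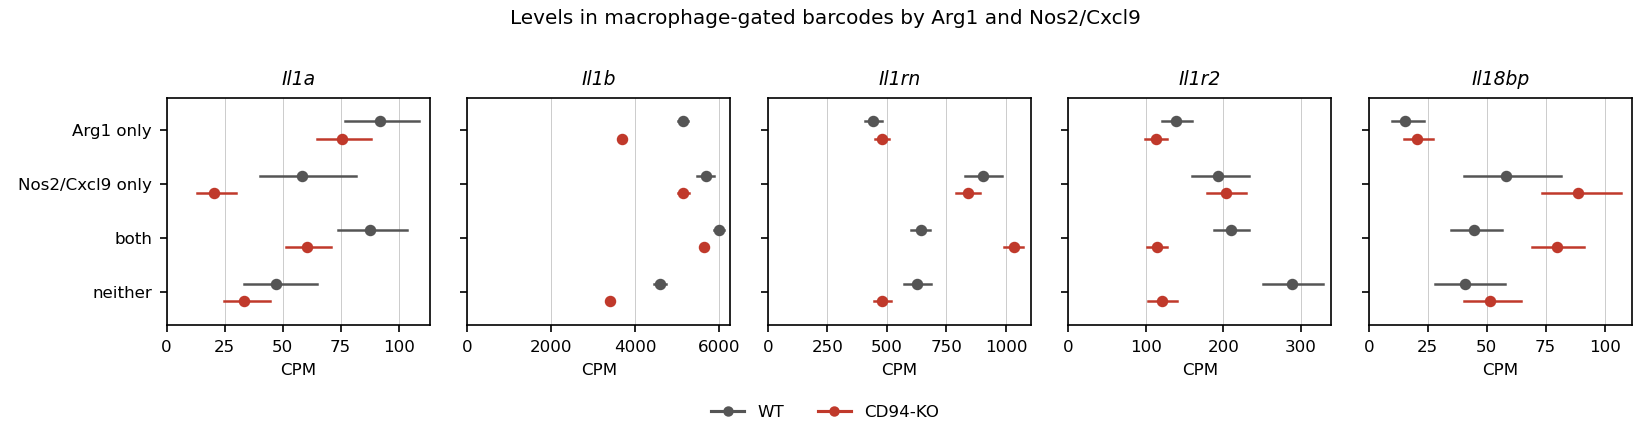
CPM (horizontal linear axis from 0) of 5 members in macrophages of the WT and CD94-KO libraries, split by Arg1 and by Nos2 or Cxcl9 at 3 UMIs or more, with lines for exact 95% intervals. Il1rn (642 and 1032 CPM) and Il18bp (44.8 and 79.6 CPM) are higher in CD94-KO cells with both signatures, and Il1r2 is lower there (209 and 114 CPM).

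Nlrp3, the sensor that nucleates the inflammasome, had its highest levels in the same classes as Il1b. Its level was 952 and 1763 CPM in neutrophils, 403 and 351 CPM in macrophages, 313 and 325 CPM in monocytes and 123 and 127 CPM in cDC2. It was lower in cDC1 (77.3 and 114 CPM) and in mregDC (23.4 and 16.9 CPM). Macrophages exceeded monocytes in WT, with intervals apart (384 to 422 and 295 to 332 CPM), whereas the intervals overlapped in CD94-KO. The ratio was 0.870 (0.819 to 0.924) in macrophages, 1.04 in monocytes, 1.04 in cDC2 and 1.85 (1.45 to 2.39) in neutrophils. In thinned WT monocytes a Nlrp3 UMI was found in 13% of cells without Il1b, 22.7% with 1 to 4 and 31.3% with 5 or more Il1b UMIs. For CD94-KO monocytes these shares were 16.7%, 18.5% and 31.9%.

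Casp1, the protease that cleaves pro-IL-1 beta and pro-IL-18, was present at similar tag counts in several classes. It stood at 59.9 and 57.5 CPM in monocytes, 44.4 and 48.2 CPM in macrophages, 48.4 and 49.2 CPM in cDC2, and 21.0 and 20.2 CPM in mregDC. T cells had 19.8 and 17.0 CPM and NK cells 20.2 and 17.2 CPM. A UMI was seen in 39.3% and 39.4% of monocytes, against 14.2% and 15.7% of the deeper non-immune cells. The ratio was 0.960 in monocytes, 1.08 in macrophages and 0.927 in dendritic cells. In cDC1, however, it was 0.422 (0.191 to 0.884), from 23 UMIs in 25 WT cells and 12 in 37 CD94-KO cells. Neutrophils had 1 and 2 Casp1 UMIs, where Pycard, the adaptor between NLRP3 and caspase-1, was at 169 and 34.8 CPM. The WT Casp1 interval of neutrophils reached 67.2 CPM, which includes the monocyte level. In CD94-KO neutrophils, Casp1 was 9.93 CPM with an upper limit of 35.9 CPM, below the monocyte interval of that library (52.0 to 63.5 CPM).

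Set side by side over the genotypes, the members moved in different directions in different classes. Among neutrophils 4 of the 6 members that were measured, meaning 20 or more UMIs summed over the libraries (Il1a, Il1rn, Il1rap and Nlrp3) were at least 1.5-fold higher and 0 lower in CD94-KO, where 22.8% of 1766 genes were higher, 24.6% lower and 47.3% either. With 16 WT cells and such a background, nothing is read from that count, and trimmed-mean scaling moves all neutrophil values up by 0.34 on the log2 scale. Monocytes had 9 measured members, of which 1 (Il1a) was lower and 0 higher, against 4.61% and 6.28% of 9416 genes (10.9% either way). With the marker minimum of each gate doubled, the monocyte ratio was 0.800 for Il1a and 1.55 for Il1rap. In macrophages 2 of 10 members were higher (Il1r1 and Il18bp) and 2 lower (Il1r2 and Il1rl1), against 4.96% and 7.14% of 9948 genes (12.1% either way). Il1r1 and Il1rl1 rested there on 34 and 21 UMIs over both libraries, and their intervals include 1.

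Dendritic cells had 8 measured members, 2 of them higher (Il1rn and Il1rap) and 0 lower, against 7.53% and 6.99% of 9262 genes (14.5% either way). With the marker minimum of each gate doubled or each cell given the same weight, 1 remained past the limit, namely Il1rap. In T cells 2 of 10 were higher (Il1rn and Il1r1) and 2 lower (Il1r2 and Il1rl1), against 9.3% and 6.23% of 9268 genes (15.5% either way). The median log2 ratio of the measured members, with 5 CPM added, was -0.05 in monocytes, -0.07 in macrophages, 0.10 in dendritic cells, 0.24 in T cells and 0.73 in neutrophils. Over all genes the same medians were 0.02, -0.01, 0.01, 0.05 and 0.00.

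In the dendritic subclasses, 2 of 5 measured members were past 1.5-fold in either direction in cDC1 (Il1rn higher, Casp1 lower) against 33% of genes, 1 of 8 in cDC2 (Il1rap higher) against 18.7%, 2 of 6 in mregDC (Il1rn higher, Il1b lower) against 19.8%, and 1 of 2 in pDC (Il1rn higher) against 24%. Among T cells the counts were 2 of 6 in CD8 T cells (Il1a higher, Il1r2 lower; 24.8% of genes), 3 of 7 in CD4 T cells (Il1rn, Nlrp3 and Casp1 higher; 26.5%), and 3 of 5 in regulatory T cells (Il1rn, Il1r2 and Il1rl1 lower; 29.4%). Gamma-delta-like T cells had 2 of 5 (Il1r2 and Nlrp3 lower; 25.5%) and the other T cells 6 of 8 (Il1b, Il1rn, Il1r1 and Nlrp3 higher, Il1rl1 and Casp1 lower; 24.2%). Il1rn was past the limit in 6 of these subclasses, above 1 in 5 of them and below 1 in regulatory T cells. Some of these calls rest on few UMIs or on single cells. In WT gamma-delta-like T cells, 31 of the 45 Il1r2 UMIs and 21 of the 30 Nlrp3 UMIs came from 1 cell per gene. Both genes were higher in CD94-KO among gamma-delta-like T cells with few Lyz2, each with overlapping intervals. Il1r2 was 3.62 and 12.4 CPM there, and Nlrp3 3.62 and 30.0 CPM. Casp1 in CD4 T cells had 9 and 12 UMIs and Il1rn in pDC 9 and 11, each with CPM intervals that overlapped between the libraries.

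**Figure D5:**
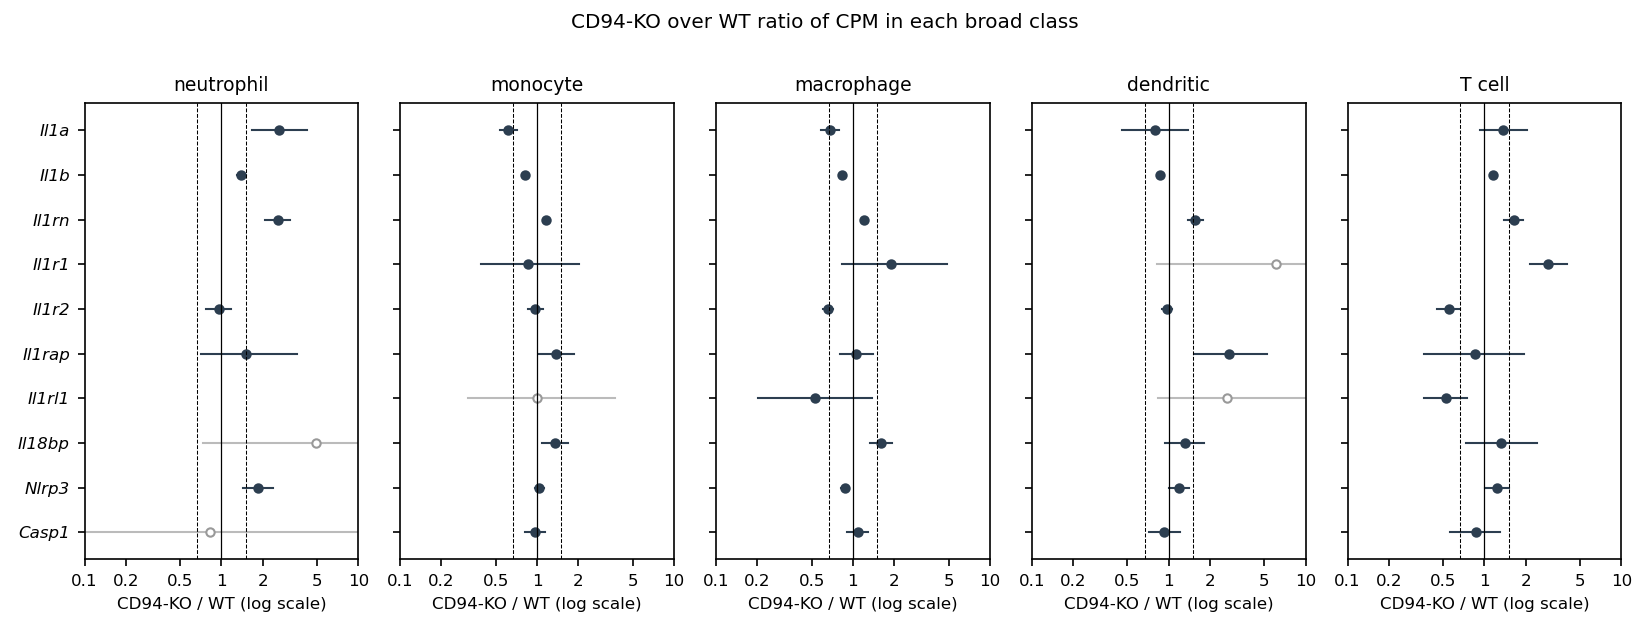
CD94-KO over WT ratio of CPM (horizontal log axis) for the 10 members in 5 classes, with lines for the exact 95% interval, open grey points for members with under 20 UMIs over both libraries and dashed lines at 1.5-fold; a member at 0 UMIs in WT is not drawn. Il1b is below 1 in monocytes (0.818), macrophages (0.838) and dendritic cells and above 1 in neutrophils (1.40), and Il1r1 (2.93) and Il1rl1 (0.525) lie on opposite sides in T cells.

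Genes that work with the members passed 1.5-fold in monocytes and macrophages in small numbers, beside 10.9% and 12.1% of all genes in those classes. Of 20 inflammasome and release genes, 19 were measured in macrophages with 1 higher (Nlrp1b, 2.03 and 4.07 CPM) and 20 in monocytes with 1 higher (Nlrp1a), and 0 were lower. Pycard was 270 and 256 CPM in monocytes and 239 and 254 CPM in macrophages, and Gsdmd, the pore that releases IL-1 beta, 70.0 and 71.9 CPM and 63.1 and 63.3 CPM. Of 22 genes of the signalling chain below the receptor, 22 were measured in macrophages with 0 past the limit, and 21 in monocytes with 1 lower (Ikbkg). In neutrophils 2 of 5 measured inflammasome genes passed the limit (Mefv higher, Pycard lower), 3 of 9 signalling genes (Irak2 and Peli1 higher, Tab2 lower), 3 of 10 inhibitors (all higher, Socs3 and Dusp1 among them) and 8 of 11 response genes (all higher, Cxcl1 and Lcn2 among them), beside 22.8% of genes higher and 24.6% lower in that class of 16 WT cells. The adaptor Myd88 was 79.8 and 79.0 CPM in monocytes and 44.9 and 55.1 CPM in macrophages.

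Among 14 genes listed as inhibitors of that chain, all measured in monocytes, 1 was lower. It was Nfkbiz, an atypical nuclear IkB protein induced by IL-1, at 340 and 211 CPM (0.622, 0.576 to 0.673). Whether it acts as an inhibitor in these cells was not tested. Nfkbia, the classical NF-kB inhibitor, was 2304 and 1701 CPM there and 1495 and 1427 CPM in macrophages. Of 20 genes known to respond to IL-1, 15 were measured in monocytes with 3 higher (6.28% of all genes were), among them Saa3 (3.46 and 9.78 CPM) and Csf3 (0.864 and 4.60 CPM), and 14 in macrophages with 2 lower (7.14% of all genes), Cxcl1 (182 and 109 CPM) and Vcam1. Dendritic cells had 11 measured, 2 of them higher (7.53% of all genes), Cxcl3 (19.5 and 44.7 CPM) and Vcam1. They also had Aim2, another inflammasome sensor, at 14.9 and 24.1 CPM and Il18 at 11.7 and 6.46 CPM (0.552, 0.320 to 0.940).

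In T cells 12 response genes were measured, 4 higher and 3 lower, where 9.3% of all genes were higher and 6.23% lower. The neutrophil-attracting chemokine Cxcl3 was 46.2 and 200 CPM, and Il17a 90.0 and 236 CPM, but Il17a was a gating gene of the gamma-delta-like class, whose share differed. Ccl4, a chemokine of activated T and NK cells, was 504 and 212 CPM, and Cxcl1 42.2 and 7.86 CPM. Lyz2 was 1181 and 1098 CPM in the T cell class, and the part of myeloid RNA in these chemokine values was not tested. The IL-18 receptor chain Il18r1 was 137 and 216 CPM (1.57, 1.37 to 1.79), and its partner Il18rap 68.9 and 60.3 CPM. In gamma-delta-like T cells Il18r1 was 239 and 379 CPM. Il33, the ligand of IL1RL1, had at most 3 UMIs in any immune class of either library and 8 in the non-immune cells of the CD94-KO library.

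The genes whose levels ran most alike with a member were found by Pearson's r of log2 (CPM + 5) over 29 units of class and library with at least 20 cells, among 9149 genes. The values are descriptions, since units share libraries and gating genes were among those compared. Closest to Il1b were Lilr4b (0.93), Osm (0.92) and Lilrb4a (0.92), and closest to Nlrp3 were Lilrb4a (0.94), Lilr4b (0.93) and Ccl6 (0.92). Il1rn ran with Mcl1 (0.94), Ccrl2 (0.93) and Ccr1 (0.89). For Il1a these were Cd300ld (0.91), the neutrophil gating gene Csf3r (0.90) and Trem1 (0.88), a neutrophil marker kept apart from gating. WT neutrophils, with 16 cells, were not among the units, so only CD94-KO neutrophils entered these values. Il1r1 ran with Ppp1r14c (0.96), Cryba4 (0.92) and the gating gene Cd163l1 (0.91). Il1r2 had its closest matches in Lmnb1 (0.84), Isg15 (0.83) and the member Il1b (0.83). For Il18bp these were Pfkfb3, Gpd2 and Nampt (0.87 each), for Casp1 they included Fam49b (0.85) and Slfn5 (0.83), for Il1rap Sgms2 (0.86), Card19 and Sde2 (0.82 each), and for Il1rl1 Arhgef12 (0.77), Vamp5 (0.75) and Csf1 (0.74). Among the members themselves, Il1b ran with Nlrp3 at 0.87 and with Il1rn at 0.86.

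Some members share bases with another gene, and whether strand was used in counting is not given in the sources used here. Il1b overlaps Il1bos and Il1a overlaps Gm14023 on the opposite strand, Il18bp (chr7:102014885-102018690, minus strand) overlaps Numa1, Il1rap overlaps Gm20319, Il1r1 overlaps Gm38070, and Il1r2 overlaps Gm16894 and Gm37347. Gm38070 and Gm37347 lie on the same strand as the member they overlap, and the other partners on the opposite strand. How reads of such pairs were assigned is not given, so these levels are uncertain by an unknown amount. The other members lie at chr2:24336853-24351494 (Il1rn), chr1:40225080-40317257 (Il1r1), chr1:40074079-40125231 (Il1r2), chr16:26581704-26730117 (Il1rap), chr11:59541568-59566956 (Nlrp3) and chr9:5298517-5307265 (Casp1), all on the plus strand of GRCm38.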

How the data were processed

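The deposited files hold raw UMI counts per gene and barcode, made by the authors, per the file headers in Cell Ranger 5.0.0, after barcodes that were not cells had been filtered per the labels' protocols. The submitters' processing notes name the mm10 build and Seurat 4.0 with no role. The annotation release is not given in the sources used here.

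Kept barcodes (4571 WT and 4765 CD94-KO) had 500 or more UMIs, 300 or more genes and a mitochondrial share below 10%. Classes were gated on raw marker UMIs (neutrophils and monocytes at least 10 UMIs from 2 and 3 markers, macrophages at least 5 C1q UMIs, T cells at least 3 UMIs from 2 of Cd3d, Cd3e and Cd3g). As the treatment of doublets, barcodes that met gates of more than 1 lineage were left out. The libraries shared 8 barcodes in the files and 4 among kept cells. Summed counts were divided by all UMIs of the class in that library, and a member or gene counted as measured with at least 20 UMIs over both libraries and as past the limit at 1.5-fold. Intervals were tested on simulated data. Members and gene lists were chosen with earlier results of these data known, gate thresholds were set after seeing the data, and so were the split by Arg1, Nos2 and Cxcl9, the limit of under 5 Lyz2 UMIs and the gate with 3 neutrophil markers. At most 2 genes per list, class and direction with the largest ratio were named, beside a preset set (Il18, Il18r1, Il18rap, Il33, Pycard, Gsdmd, Myd88 and Nfkbia among them), and the 3 genes most like each member, of which 1 is not reported here. Alternatives were trimmed-mean (TMM) and relative log expression (RLE) scaling, equal weight per cell, a minimum of 1000 UMIs, doubled gate minimums, removal of the 4% highest Scrublet scores, no mitochondrial limit, a minimum of 1 UMI and thinning to 1000 UMIs. Tools were Python 3.11.15, numpy 2.4.6, scipy 1.17.1, pandas 2.3.3, scanpy 1.11.5, matplotlib 3.10.9, R 4.3.3 and edgeR 4.0.16 (scaling factors only). Gene positions came from GENCODE on GRCm38 and promoter sequences from RefSeq on GRCm38.p6, where each of the 10 members had an entry.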

Additional observations from a re-analysis of the deposited data

Results flagged for a closer look

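The results below stood out because a member was at least 1.5-fold higher in CD94-KO in some classes and lower by as much in others, with counting intervals that leave out 1, or because it was past 1.5-fold in a class outside the main comparisons. Differences between classes were not tested, since each genotype has 1 library.

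Il1a was 2.61 in neutrophils and 0.614 in monocytes. In CD8 T cells it was 8.67, from 4 WT and 23 CD94-KO UMIs, of which 22 came from 1 cell, and CD8 T cells with under 5 Lyz2 UMIs held 2 and 0. Il1b was 0.649 in mregDC and 1.82 in T cells outside the named subclasses, where it was 0.758 with each cell given the same weight.

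Il1rn was 2.57 in neutrophils, 5.35 in cDC1, 1.75 in mregDC, 2.54 in CD4 T cells, 3.16 in other T cells and 0.590 in regulatory T cells. The cDC1 value rests on 10 CD94-KO cells that held 96.1% of the UMIs, and monocyte gating markers there were 789 and 2518 CPM. The ratio in other T cells was 1.2 with few Lyz2 (33.1 and 39.7 CPM, 20 and 17 UMIs) and 1.81 with each cell given the same weight, 60 of its 116 CD94-KO UMIs came from 1 cell, and Lyz2 was 637 and 1762 CPM there. In CD4 T cells with few Lyz2 the ratio was 5.84, from 8 and 28 UMIs, and 17 of the 28 came from 1 CD94-KO cell. An Il1rn UMI was seen in 12.5% and 20.5% of those cells, with overlapping intervals.

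Nlrp3 was 1.85 in neutrophils, 1.70 in CD4 T cells, 2.78 in other T cells and 0.512 in gamma-delta-like T cells. CD4 T cells with few Lyz2 held 5 and 6 Nlrp3 UMIs and other T cells 7 and 8, and 27 of the 68 CD94-KO UMIs of other T cells came from 1 cell. Gamma-delta-like T cells with few Lyz2 had 1 and 17 UMIs (3.62 and 30.0 CPM), the opposite direction, and Lyz2 in that class was 839 and 334 CPM.

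Outside the main classes, Il1b was 5.36 and Il1rn 7.77 in B cells, from 11 WT and 24 CD94-KO cells, and 103 of the 131 CD94-KO Il1b UMIs came from 1 cell. In mast or basophil cells Il1b was 3.09 and Nlrp3 1.90, from 3 WT and 24 CD94-KO cells, and neutrophil gating markers were there at 2457 and 5452 CPM. Il1rap was 1.55 in non-immune cells, from 92 and 63 UMIs, and 1.43 under TMM and 1.41 under RLE scaling, below the 1.5-fold limit.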

How the results depend on the processing

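Members past 1.5-fold numbered 1 in monocytes and 2 with each cell given the same weight. With gate minimums doubled, monocyte Il1a was 0.800 and no longer past the limit, while Il1rap was 1.55 and past it. In dendritic cells such members numbered 2, but 1 with each cell given the same weight, 1 with gate minimums doubled and 4 with a minimum of 1 UMI. Counts in neutrophils (4, range 3 to 6), macrophages (4, range 3 to 5) and T cells (4, range 4 to 6) stayed within 1.5 times under the alternatives run. Signs were compared only where an alternative kept at least 20 UMIs over both libraries. Among log2 ratios past 1.5-fold, Il1rn in regulatory T cells then changed sign (0.69 with gate minimums doubled and 0.078 with few Lyz2). So did Il1r2 in regulatory T cells (0.17 with few Lyz2) and Nlrp3 in gamma-delta-like T cells (0.13 with each cell given the same weight). The last was Il1b in other T cells (-0.40 with each cell given the same weight and -0.30 with few Lyz2). Below that minimum, the direction with few Lyz2 also changed for Il1r2 and Nlrp3 in gamma-delta-like T cells (1 and 7 UMIs, 1 and 17 UMIs). It changed as well for Il1a in CD8 T cells (2 and 0 UMIs). The cause was not tested. Of 95 ratios, 91 stayed within their counting interval under TMM and 91 under RLE scaling, 77 with each cell given the same weight and 95 with at least 1000 UMIs per cell, as did 68 of 93 with gate minimums doubled, 81 of 93 without the highest Scrublet scores and 12 of 29 T cell ratios with few Lyz2. TMM scaling shifted all ratios by over 0.1 on the log2 scale in neutrophils (0.34), CD8 T cells (-0.14), regulatory T cells (-0.12), NK cells (-0.12), non-immune cells (-0.12) and mast or basophil cells (0.57). No paired analysis was possible because each genotype has 1 library. Depth limits Il1r1, Il1rap, Il1rl1 and Il18bp most, whose sums in many classes were under 20 UMIs.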

Other observations

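Natural killer cells, the class in which CD94 is best known, were low in the members. Il1b was 375 and 479 CPM with a median of 1 UMI per cell, Il1rn 62.5 and 78.3 CPM, Nlrp3 33.0 and 38.9 CPM and Il1r2 15.1 and 17.9 CPM. Il1r1 had 2 UMIs in each library, Il1rl1 6 and 0, and Il1rap 13 and 30. The 24 mast or basophil cells of the CD94-KO library had a median of 65.5 Il1b UMIs, against 1 in the 3 WT cells. Non-immune cells, at the greatest depth, held Il1rl1 (55.2 and 56.0 CPM), Il1rap (16.2 and 25 CPM) and Il1r1 (11.2 and 13.5 CPM), while Il1b was 32.8 and 43.7 CPM.

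Across monocytes and macrophages ordered by C1q UMIs per cell (0 to 1 for monocytes, then 5 to 9, 10 to 29 and 30 or more), Il1b was 6261, 5773, 5718 and 5233 CPM in WT and 5118, 4930, 4702 and 4371 CPM in CD94-KO. Il1r2 was 112, 113, 168 and 223 CPM in WT and 108, 141, 113 and 137 CPM in CD94-KO. Bins of raw C1q UMIs also sort macrophages by depth. In the same order, median depth was 9708, 5581, 9240 and 15121 UMIs in WT and 9743, 7488, 9015 and 13273.5 in CD94-KO. The part of depth in these values was not tested. Cells were also read singly after thinning to 1000 UMIs. Il1rn, the antagonist, was seen in 22.2% of WT monocytes without an Il1b UMI, 28.0% with 1 to 4 and 44.2% with 5 or more, and in 34.1%, 36.4% and 55.3% of CD94-KO monocytes. In macrophages these shares were 26.2%, 36.4% and 42.6% in WT and 25.7%, 34.5% and 49.8% in CD94-KO. Ligand and antagonist tags were thus found in the same cells, and in monocytes and macrophages the share with Il1rn was highest beside the most Il1b.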
